A study of Mus musculus with 19 samples.

Results

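Plagl1 and 9 other imprinted genes (Nnat, Gnas, Grb10, Cdkn1c, Peg3, Mest, Dlk1, Rasgrf1 and Ndn) were followed in islets of Langerhans from C57BL/6 (B6; C57BL6/J in the design text) and C57BLKS/J (BLKS) mice. Every non-control probe of the microarray filed under one of these gene names was taken, whatever its value, which gave 21 probes for 10 genes, out of 41174 probes that name 19100 genes. All 21 were among the 29326 probes bright enough to be tested. The question was whether other imprinted genes followed the strain difference of Plagl1.

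Islets came from male mice of 12 weeks, 1 mouse per sample and not pooled. No transgene or engineered gene deletion was introduced in either strain. The paper reports that B6 mice carry a deletion within the gene Nnt, which BLKS mice lack. Islets were held for 48 h in 11 mM glucose and then for 24 h in 5 mM (low) or 20 mM (high) glucose. The 4 groups were B6 low glucose (5 mice), BLKS low glucose (5), B6 high glucose (5) and BLKS high glucose (4), and the RNA of each mouse was labelled with both dyes on 20 arrays of 2 colours. B6 low glucose 1 lies on a second pair of arrays; the design text counts 1 more B6 mouse in low glucose than the labels do, so its averaged value could be that of 1 mouse or of 2. BLKS is an inbred strain whose genome is mostly that of B6 with a contribution from DBA. Values are log2 processed intensities, the brightness of a probe after dye normalization and after scaling between arrays. They rank mice for a given probe and were not compared between probes, and fold changes of dim probes are understated because background was not subtracted. In whole islets, fewer cells of a type and less RNA per cell cannot be told apart.

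Imprinted genes are transcribed mainly from the chromosome inherited from a single parent, under control of DNA methylation set in the germ line. Many act on fetal growth and on cell proliferation, and several are known from pancreatic islets. Plagl1 (also Zac1) encodes a zinc finger transcription factor that is transcribed from the paternal allele and can arrest the cell cycle; gain of its human counterpart is known from transient neonatal diabetes. It is also known as a regulator of a group of imprinted genes, among them several of those described here.

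Libraries were first set against their labels. Over 105 probes more than 2-fold apart between strains in high glucose, chosen without these 10 genes, 9 B6 mice lay between -0.066 and 0.037 and 8 BLKS mice between 0.93 and 1.02 on a scale from 0 (B6) to 1 (BLKS). The ends of the scale were the means of the high-glucose mice, which also gave the probes. Positions near 0 or 1 were thus built in for those mice, and only low-glucose libraries were checked. The library labelled B6 low glucose 4 lay at 1.0. At the other end, the library labelled BLKS low glucose 5 lay at -0.045, so each went against its label. Both, called the doubted libraries from here on, were kept under their labels, and low-glucose results are given with and without them. They also widen the common estimate of spread used in high glucose, where neither is a member of the groups compared. Whole-array correlations between mice were 0.981 to 0.998, all 9 beta cell markers were measured in every group, and median signal per channel was 75.0 to 103.1 units against 50.8 to 60.9 for negative control spots.

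Plagl1 lies on chromosome 10 (GRCm38.p6, 13090832 to 13131694, plus strand). In high glucose its brighter probe (A_52_P532456) read 9.20, 9.11, 9.09, 9.20 and 9.12 in the 5 B6 mice. The 4 BLKS mice read 11.77, 11.86, 12.03 and 12.02. Every BLKS value lay above every B6 value, and the means were 9.14 ± 0.051 (SD, n = 5) and 11.92 ± 0.13 (SD, n = 4). The difference of 2.78 on the log2 scale (SE 0.615, or 0.068 without both doubted libraries) is 6.85-fold, the third largest strain difference in size among the 29326 probes. Because the list was built around this difference, it is a description and no p is given.

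In low glucose the same probe read 9.08, 9.15, 9.04, 12.23 and 9.18 in the libraries labelled B6. Those labelled BLKS read 11.79, 12.17, 11.88, 12.00 and 8.90. The values of 12.23 and 8.90 belong to the doubted libraries, and each lies nearer the other strain's mice than those of its label. With both, the strain difference was 1.61 (SE 0.58); without them, it was 2.85 (SE 0.072), or 7.20-fold, and the groups did not overlap.

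The other Plagl1 probe (A_51_P432034) was dimmer. It read 6.81, 6.92, 6.86, 6.87 and 6.79 in B6 high glucose, and 7.40, 7.75, 7.64 and 7.72 in BLKS high glucose. Again no values overlapped, and the difference was 0.78 (SE 0.167), or 1.71-fold. In low glucose without both doubted libraries it was 0.75. The 2 probes thus gave the same direction and very different sizes. The dimmer one lay closer to background, and the cause of the unequal sizes was not tested.

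**Figure D1:**
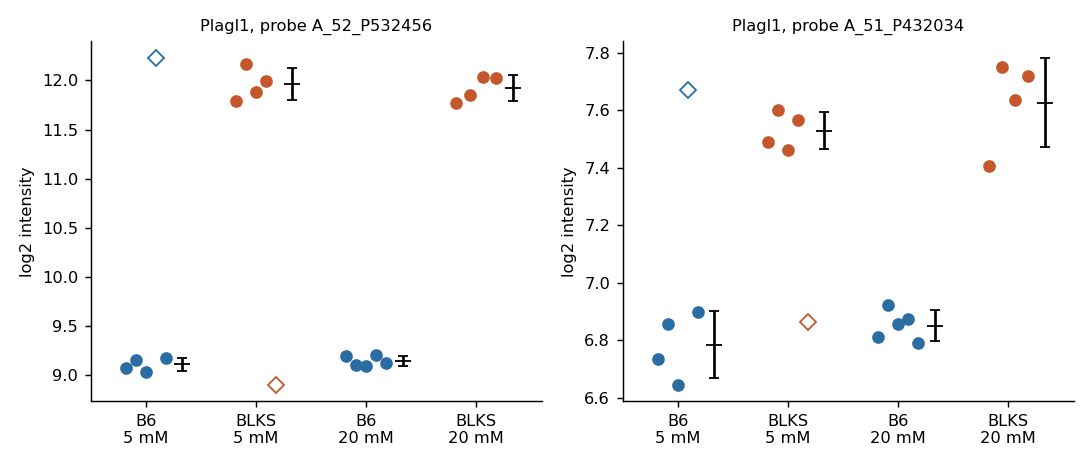
Log2 processed intensity (vertical axis) of the 2 Plagl1 probes in every mouse, by strain and glucose; black marks are the mean ± SD without the 2 libraries that go against their labels, which are drawn as open diamonds. On the brighter probe B6 mice sit near 9.1 and BLKS mice near 12, and the 2 diamonds sit with the opposite strain at 12.23 and 8.90.

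Plagl1 did not respond to glucose in a way that passed the threshold used throughout, a Benjamini-Hochberg adjusted p under 0.05 in limma over all 29326 probes. On the brighter probe the difference between high and low glucose was -0.59 in B6, with an adjusted p of 0.633, and 0.57 in BLKS, with an adjusted p of 0.621. These values rest on the 2 doubted libraries. Without them they were 0.033 (adjusted p 0.835) and -0.038 (adjusted p 0.828). The difference between the strains' responses was 1.16 (SE 0.846, adjusted p 1), and -0.071 without them.

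Promoter sequence is shown for Plagl1 and for the members whose promoter holds GGGGCCCC, a palindromic motif described for binding by the Plagl1 protein. Each run covers 250 bases before to 50 bases after a RefSeq transcription start (GRCm38.p6), 5′ to 3′ on the strand of the gene, with that motif in capitals.
Plagl1, chr10:13090582-13090881, plus strand: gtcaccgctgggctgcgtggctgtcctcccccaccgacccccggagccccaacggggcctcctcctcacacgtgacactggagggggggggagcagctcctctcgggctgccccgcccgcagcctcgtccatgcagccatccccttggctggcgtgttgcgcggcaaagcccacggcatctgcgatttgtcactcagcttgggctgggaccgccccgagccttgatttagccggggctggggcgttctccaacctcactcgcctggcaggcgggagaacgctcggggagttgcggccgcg
Rasgrf1, chr9:89909525-89909824, plus strand: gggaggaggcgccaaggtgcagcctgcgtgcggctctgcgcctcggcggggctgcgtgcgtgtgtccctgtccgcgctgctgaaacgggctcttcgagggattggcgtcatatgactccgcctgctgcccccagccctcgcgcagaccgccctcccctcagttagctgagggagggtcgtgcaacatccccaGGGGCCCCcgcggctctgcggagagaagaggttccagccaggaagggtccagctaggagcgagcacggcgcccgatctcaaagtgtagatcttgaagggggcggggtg
Peg3, chr7:6730370-6730669, minus strand: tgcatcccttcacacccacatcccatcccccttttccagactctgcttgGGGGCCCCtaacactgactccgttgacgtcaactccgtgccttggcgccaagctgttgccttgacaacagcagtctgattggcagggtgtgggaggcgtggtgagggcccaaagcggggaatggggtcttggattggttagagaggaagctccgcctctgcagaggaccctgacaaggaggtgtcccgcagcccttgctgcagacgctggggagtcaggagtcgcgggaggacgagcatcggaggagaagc
The Plagl1 window held no such motif and was GC-rich, at 70.7% GC and 26 CpG dinucleotides against a median of 52.7% and 7 over all promoters. In Rasgrf1 the motif began 58 bases before the start used for its window, and in Peg3 201 bases before. For both genes that start lies inside the gene span given below, not at its outer end, so the distances hold for that start alone. It occurred in 2 of the 9 members with a promoter in the table, and in 338 of all 27025 genes there (1.25%). A match describes the sequence and does not show binding; the 2 members with a match had strain differences of opposite sign, given with their values in turn.

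Among the other 9 genes, Rasgrf1, Mest and Ndn leaned the way of Plagl1. Rasgrf1 (chromosome 9, 89909508 to 90026979), a guanine nucleotide exchange factor for Ras that is transcribed from the paternal allele and is known in beta cells, had the firmest difference. Its probe A_52_P536025 read 10.42, 10.49, 10.47, 10.45 and 10.41 in B6 high glucose, and 10.95, 10.89, 10.79 and 10.92 in BLKS high glucose. BLKS values were all higher, by 0.44 (SE 0.070, 1.36-fold, adjusted p 0.00152), and the call held when any of the 19 mice was left out. In low glucose the libraries labelled B6 read 10.32, 10.30, 10.43, 10.70 and 10.53 and those labelled BLKS 10.72, 10.59, 10.57, 10.69 and 10.44. That difference was 0.15 (adjusted p 0.282), and 0.25 (adjusted p 0.00292) without both doubted libraries, whose values of 10.70 and 10.44 again sat with the opposite strain. It also passed with a random block for array pairs (0.16, adjusted p 0.0387) or without the first of these libraries (0.21). The other Rasgrf1 probe (A_52_P671676) was at 0.015 between strains in high glucose (adjusted p 0.949).

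Mest (chromosome 6, 30733506 to 30748466), a paternally transcribed gene for a protein of the alpha/beta hydrolase fold, had a smaller strain difference of the same sign. In high glucose B6 mice read 7.56, 7.53, 7.36, 7.61 and 7.68 and BLKS mice 7.76, 7.80, 7.71 and 7.75. The groups did not overlap, and the difference of 0.21 (SE 0.071) had an adjusted p of 0.0683, or 0.015 without both doubted libraries. It also passed when either BLKS low glucose 5 (0.21) or B6 high glucose 5 (0.24) alone was left out. With a fixed block for the pairs of mice that shared arrays it was 0.24 (adjusted p 0.0167, 18 mice). Libraries in low glucose labelled B6 read 7.58, 7.54, 7.46, 7.65 and 7.43 and those labelled BLKS 7.83, 7.77, 7.95, 7.81 and 7.53. That difference was 0.24 (adjusted p 0.132), 0.33 without both doubted libraries (adjusted p 0.000567) and past the threshold also with the fixed block (adjusted p 0.0286).

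Ndn (chromosome 7, 62348277 to 62349928), a paternally transcribed growth suppressor of the MAGE family, was higher in BLKS in high glucose. Its probe A_52_P451644 read 7.84, 7.76, 7.80, 7.70 and 7.80 in B6 and 7.98, 8.03, 8.0 and 7.95 in BLKS. The difference was 0.21 (SE 0.050, 1.15-fold, adjusted p 0.0132) with no overlap. Without scaling between arrays (0.21, adjusted p 0.12) and in the deposited log2 table (0.21, adjusted p 0.266) it did not pass. In low glucose it was 0.077, and 0.11 without both doubted libraries (adjusted p 0.221), and the groups overlapped. The dimmer Ndn probe (A_51_P420810) gave -0.055 in high glucose (adjusted p 0.301), so the 2 probes differed in sign.

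Cdkn1c, Dlk1 and Peg3 lay the opposite way to Plagl1. Cdkn1c (chromosome 7, 143458339 to 143461059), a maternally transcribed inhibitor of cyclin-dependent kinases, had a dim probe that averaged 1.37-fold above negative controls. In high glucose it read 6.37, 6.28, 6.37, 6.26 and 6.55 in B6 and 6.17, 6.14, 6.13 and 6.12 in BLKS. BLKS values were all lower, by -0.22 (SE 0.063, 1.17-fold, adjusted p 0.0283), a call kept in 14 of the 19 fits that left out 1 mouse. It was lost without B6 high glucose 1 (-0.22) or 5 (-0.18) and without BLKS high glucose 2, 3 or 4 (-0.22 each). It was also lost without scaling between arrays (-0.21, adjusted p 0.162), in the deposited log2 table (adjusted p 0.201) and in the Cy5 channel alone (-0.14, adjusted p 0.247). Those in low glucose labelled B6 read 6.47, 6.33, 6.41, 6.20 and 6.40 and those labelled BLKS 6.15, 6.17, 6.16, 6.09 and 6.37. Here the difference was -0.17 (adjusted p 0.171), and -0.26 (adjusted p 0.00135) without both doubted libraries, with no overlap; a fixed block for array pairs gave -0.16 (adjusted p 0.0274).

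Dlk1 (chromosome 12, 109452485 to 109463336), a paternally transcribed transmembrane protein related to Notch ligands, had the largest difference after Plagl1 among the members in high glucose. Its probe A_51_P135618 read 7.89, 7.73, 7.92, 7.77 and 8.33 in B6 high glucose and 7.43, 7.14, 7.50 and 7.39 in BLKS high glucose. BLKS was lower by -0.57 (SE 0.154, 1.48-fold, adjusted p 0.0242) with no overlap, a call kept in 16 of 19 fits without 1 mouse and lost without B6 high glucose 5 (-0.47) or without BLKS high glucose 2 (-0.49) or 4 (-0.57). Low-glucose libraries labelled B6 read 7.46, 8.05, 7.35, 7.15 and 7.21 and those labelled BLKS 7.34, 7.47, 7.57, 7.58 and 7.15, which overlapped (difference -0.024, and -0.029 without both doubted libraries). The dimmer Dlk1 probe (A_52_P177324) gave -0.12 in high glucose (adjusted p 0.335).

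Peg3 (chromosome 7, 6703892 to 6730462), a paternally transcribed zinc finger protein, read 8.51, 8.60, 8.38, 8.62 and 8.78 in B6 high glucose and 8.46, 8.46, 8.29 and 8.27 in BLKS high glucose. The ranges overlapped, with a difference of -0.21 (SE 0.112, adjusted p 0.287). Low-glucose libraries labelled B6 read 8.77, 8.74, 8.84, 8.55 and 9.02 and those labelled BLKS 8.72, 8.47, 8.45, 8.29 and 8.94. The difference of -0.21 (adjusted p 0.347) became -0.36 (adjusted p 0.0112) without both doubted libraries and -0.20 (adjusted p 0.037) with a random block for array pairs, and it was 0.047 (adjusted p 0.904) when only the Cy5 channel was used with all mice.

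Markers of other cell types also differed between strains in high glucose. The summed intensity of all 8 markers tested (Col1a1, Col1a2, Col3a1, Pdgfra, Pdgfrb, Lum, Acta2 and Thy1) ranged from 4045 to 7789 in B6 and from 2173 to 3952 in BLKS, and 5 of the 8 were lower in BLKS while none was higher (7.56% of all tested genes were lower). In low glucose the sums were 2825 to 4800 in libraries labelled B6 and 2542 to 3458 in those labelled BLKS. Without both doubted libraries 0 of the 8 passed in limma, against 18.9% of all tested genes. None was at an unadjusted p under 0.05 either, and 1 of the 8 had a positive difference (median -0.13). Endothelial sums (7 markers) were 2134 to 2568 in B6 high glucose and 1715 to 2021 in BLKS high glucose, and 3 of the 7 were lower there. In low glucose without both doubted libraries 4 of the 7 were lower, where 18.9% of all tested genes passed in either direction. Macrophage sums (5 markers) were 2304 to 3446 and 1741 to 2276, with 1 marker lower (Lyz2, -0.76) and 3 of the 5 at positive differences (median 0.068). Msln, the only mesothelial marker of 4 that was tested, read 1218 to 1620 units in B6 and 227 to 397 in BLKS in high glucose, a difference of -2.14 (adjusted p 0.0189). In low glucose without both doubted libraries it differed by -2.18 (adjusted p 1.32e-07). Acinar and duct markers leaned the other way in high glucose. Of 8 acinar markers 1 was higher in BLKS and none lower, with 6 at positive differences (median 0.23). Of 4 tested duct markers 1 was higher and none lower, with all 4 at positive differences (median 0.081). Of all tested genes 6.18% were higher. The part of these cells in the differences of Dlk1, Cdkn1c, Peg3, Rasgrf1, Mest and Ndn was not tested.

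**Figure D2:**
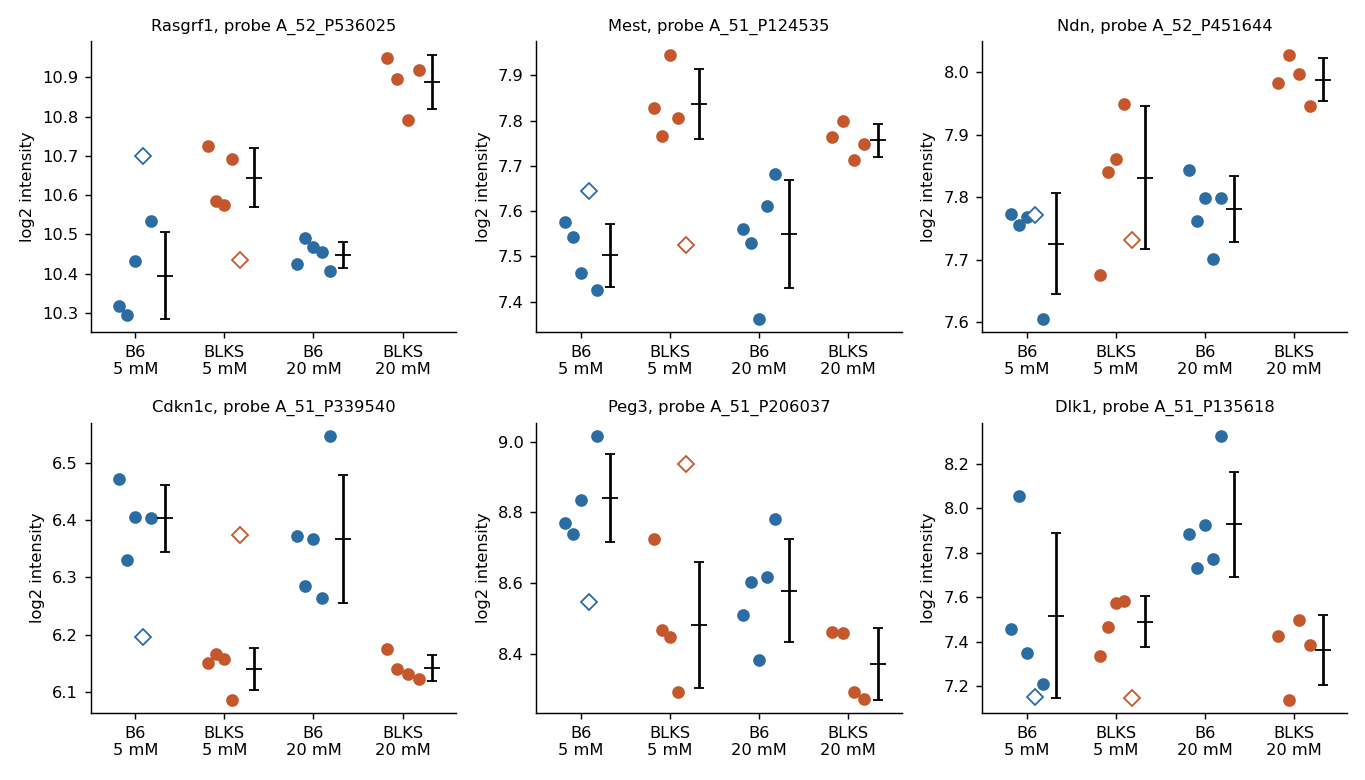
Log2 processed intensity (vertical axes, each with its own range) of Rasgrf1, Mest, Ndn, Cdkn1c, Peg3 and Dlk1 in every mouse by strain and glucose; black marks are mean ± SD without the 2 libraries that go against their labels (open diamonds). In high glucose BLKS mice sit above all B6 mice for Rasgrf1, Mest and Ndn and below them for Cdkn1c and Dlk1, while Peg3 values overlap.

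Gnas, Grb10 and Nnat had no probe past the threshold between strains with all mice. Gnas (chromosome 2, 174284320 to 174346744) is a complex locus whose main product is the stimulatory G protein alpha subunit that links receptors to cAMP. Its brightest probe (A_52_P112188) ranged from 9.49 to 9.88 in B6 and from 9.59 to 9.99 in BLKS in high glucose, a difference of 0.15 (adjusted p 0.447). The other 4 Gnas probes differed by 0.047 to 0.12. One of them, A_52_P431319, which averaged under 2-fold above negative controls, was higher in BLKS by 0.16 (adjusted p 0.026) with a fixed block for array pairs and by 0.13 (adjusted p 0.0483) with a random one. In low glucose it was higher by 0.20 (adjusted p 0.0436) without both doubted libraries and by 0.13 (adjusted p 0.044) with a random block. With a random block for array pairs the dim probe A_52_P190394 also passed (adjusted p 0.0358; 0.098 and 0.163 with no block).

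Grb10 (chromosome 11, 11930499 to 12037428) encodes an adaptor that restrains insulin and IGF receptor signalling. Its brightest probe (A_52_P115787) ranged from 8.51 to 8.69 in B6 and from 8.45 to 8.74 in BLKS in high glucose (difference -0.039, adjusted p 0.818), and the other 2 differed by -0.058 and 0.012. Nnat (chromosome 2, 157560078 to 157562525), a paternally transcribed small membrane protein of the endoplasmic reticulum linked to insulin secretion, ranged from 6.56 to 6.83 in both strains in high glucose on its brighter probe (A_52_P484956; difference 0.065, adjusted p 0.809). These ranges coincided almost fully between strains. The 2 Nnat probes averaged only 2.03-fold (A_52_P484956) and 1.20-fold (A_52_P386754) above negative controls, where differences are understated.

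Counted together, 4 of the 19 probes other than those of Plagl1 passed between strains in high glucose (21.1%), against 11.1% of all tested probes. Of these 4, 2 were higher in BLKS (Rasgrf1, Ndn), against 4.98% of all tested probes, and 2 lower (Cdkn1c, Dlk1), against 6.13%. Over all 19 probes the median absolute difference was 0.098, against 0.055 over all tested probes, while the median difference, with its sign, was 0.015. Without both doubted libraries Mest joined them, giving 5 of 19 against 15.3%. With a random block for array pairs 7 of 19 passed, against 26.1%. The members that passed did not share a direction, and the largest difference of another member was 0.57 in size against 2.78 for Plagl1. Direction did not follow the transcribed allele either, since Rasgrf1, Mest, Ndn, Dlk1 and Peg3 are all paternally transcribed and Cdkn1c is maternally transcribed.

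In low glucose none of these 19 probes passed in limma with all mice (3 at an unadjusted p under 0.05), against 0.0% of all probes (4706 unadjusted). Without both doubted libraries 5 of 19 passed, against 15.6%, 1 probe each of Rasgrf1, Mest, Gnas, Cdkn1c and Peg3. Rasgrf1 and Mest were then higher and Cdkn1c lower in BLKS at both glucose levels. Dlk1 and Ndn passed in high glucose alone, and Peg3 and Gnas in low glucose alone; the differences between these effects are the interaction tested below.

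**Figure D3:**
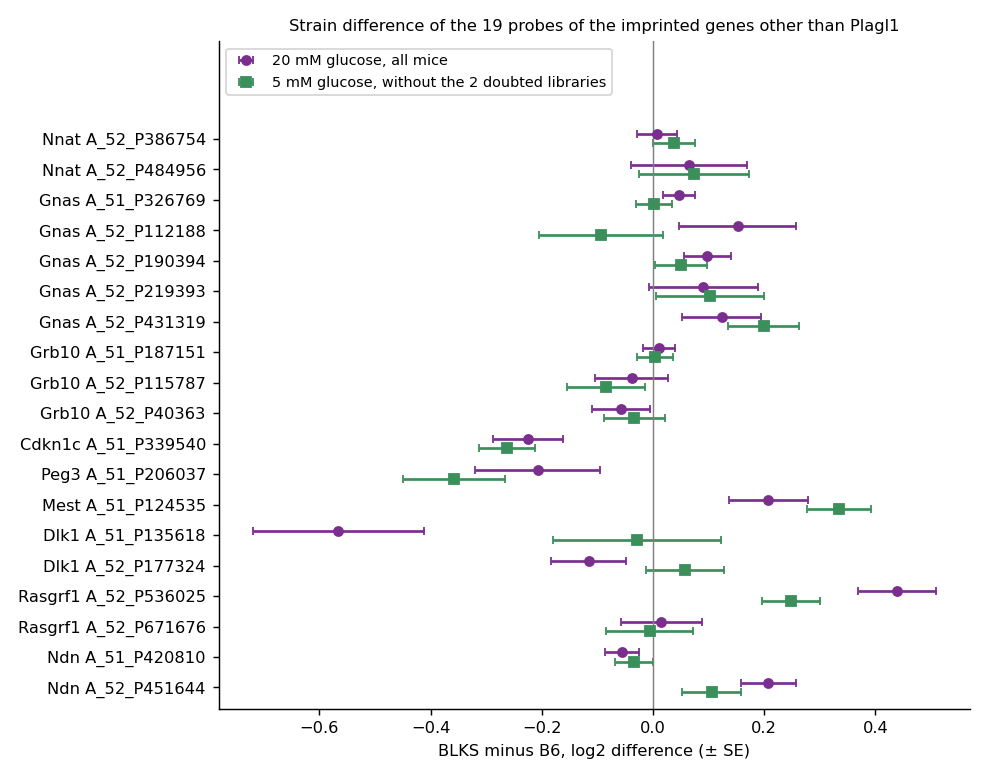
Strain difference (BLKS minus B6, log2, ± SE) of the 19 probes other than those of Plagl1, in 20 mM glucose with all mice and in 5 mM glucose without the 2 libraries that go against their labels. Probes lie on both sides of 0, with Rasgrf1 highest at 0.44 and Dlk1 lowest at -0.57 in 20 mM glucose.

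The response to glucose was small in most members. In B6, 2 of 21 probes passed, against 9.53% of all probes. Dlk1 was higher in high glucose by 0.48 (SE 0.145, 1.40-fold, adjusted p 0.0425), with overlapping groups because B6 low glucose 2 read 8.05, and the call was kept in 8 of 19 fits without 1 mouse, the value moving between 0.38 without B6 high glucose 5 and 0.64 without B6 low glucose 2. One Rasgrf1 probe (A_52_P671676) was lower, at -0.22 (adjusted p 0.0446), a call kept in 7 of those 19 fits. Neither passed without both doubted libraries (0 of 21, against 12.2%), where Dlk1 was at 0.41 (adjusted p 0.0742) and Rasgrf1 at -0.22 (adjusted p 0.0659). At an unadjusted p under 0.05 in limma there were then 6 of 21, against 23.7% of all probes. With a random block for array pairs the Rasgrf1 probe did not pass (adjusted p 0.169), whereas Dlk1 (0.55, adjusted p 0.0112), its dimmer probe (0.21, adjusted p 0.0115) and Nnat (-0.40, adjusted p 0.00772; -0.30 and 0.0639 with no block) did, 3 of 21 against 13.3%. The mesenchymal sums given above were also higher in B6 in high than in low glucose, and 2 of the 8 markers rose, against 6.58% of all genes; their part in the Dlk1 response was not tested.

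In BLKS, 2 of 21 probes passed, against 11.6%. The brighter Rasgrf1 probe rose by 0.29 (SE 0.070, 1.22-fold, adjusted p 0.0114), with every high-glucose mouse above every low-glucose library, and by 0.24 without the doubted library (adjusted p 0.00569). It did not pass without scaling between arrays (0.27, adjusted p 0.076) or in the deposited log2 table (0.34, adjusted p 0.0833). The other Rasgrf1 probe (A_52_P671676) went the opposite way in BLKS, averaging 7.58 in low and 7.40 in high glucose, and did not pass. On its brighter probe Ndn rose by 0.18 (adjusted p 0.0264), and was at 0.16 without the doubted library (adjusted p 0.0729). The dimmer Ndn probe (A_51_P420810) averaged 6.20 in low and 6.14 in high glucose and did not pass. With a random block for array pairs the dim Gnas probe A_51_P326769 passed as well, at 0.088 (adjusted p 0.031; 0.085 and 0.0663 with no block), so that 3 of 21 passed, against 12.2%. The Ndn call was kept in 14 of 19 fits without 1 mouse and was lost also without BLKS low glucose 1 (0.14) and without BLKS high glucose 1, 2 or 3 (0.16 to 0.18). Without both doubted libraries 2 of 21 passed, against 9.9%, namely the brighter Rasgrf1 probe and the dim Gnas probe A_52_P431319. That Gnas probe was lower in high glucose, at -0.23 (adjusted p 0.0313), against -0.18 (adjusted p 0.112) with all mice. These responses share the BLKS high-glucose mice with the strain difference above, and those of B6 share the B6 high-glucose mice, so they are not independent of it.

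No member's glucose response differed between strains past the threshold (0 of 21, against 0.0409% of all probes). At an unadjusted p under 0.05 in limma there were 2 of 21, against 4.42% of all probes. The unadjusted values were those of Rasgrf1 (0.29, SE 0.096, adjusted p 0.811) and Dlk1 (-0.54, SE 0.212, adjusted p 0.987), in opposite directions. Without both doubted libraries they were 0.19 (SE 0.072, adjusted p 0.716) for Rasgrf1 and -0.54 (SE 0.208, adjusted p 0.733) for Dlk1. There Peg3 was at 0.15 (SE 0.125, adjusted p 1) and the Gnas probe A_52_P431319 at -0.076 (SE 0.088, adjusted p 1). No member probe passed there with a random block for array pairs either.

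**Figure D4:**
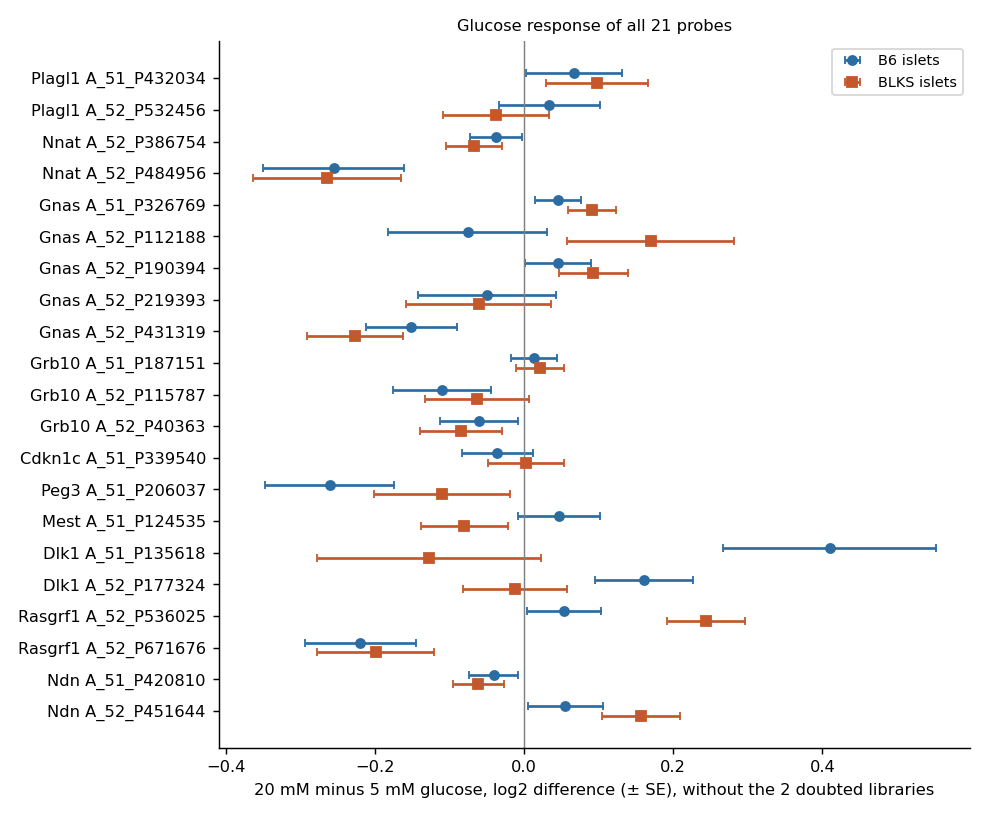
Glucose response (20 mM minus 5 mM, log2, ± SE) of the 21 member probes in B6 and in BLKS, without the 2 libraries that go against their labels. Both Plagl1 probes lie near 0 in both strains, the brighter Rasgrf1 probe is at 0.24 in BLKS, and Dlk1 is at 0.41 in B6.

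Imprinted genes beyond these 10 did not lean as a group either. Of 22 other paternally transcribed genes, 14 were tested, and 1 was higher and 1 lower in BLKS islets at high glucose, with a median difference of 0.020. Of all genes tested, 13.7% passed there, 6.18% higher and 7.56% lower. A random block for array pairs gave 30.6% of all genes, and of these 14 genes 2 were higher and 2 lower. Snrpn, a splicing protein gene near Ndn in the same imprinted region, was higher in high glucose by 0.21 (SE 0.048, adjusted p 0.00936), and in low glucose without both doubted libraries it was at 0.034 (adjusted p 0.781). It also rose with glucose in BLKS, by 0.24 (adjusted p 0.00278). Nap1l5, a histone chaperone relative, was lower by -0.51 (SE 0.094, adjusted p 0.00345) and by -0.50 in low glucose without both. Igf2, a growth factor, was at 0.21 (adjusted p 0.0607), and at 0.20 in low glucose without both (adjusted p 0.0103).

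Of 39 other genes listed as maternally transcribed, 37 were tested, with 4 higher, 4 lower and a median of 0.0066, or 9 higher and 8 lower with a random block for array pairs. The largest rises in BLKS were those of Cd81, a tetraspanin of the cell surface, at 0.67 (SE 0.11, adjusted p 0.00171), and of Slc22a18, a transporter of organic ions, at 0.61 (SE 0.114, adjusted p 0.00357). The largest falls were those of Ddc, the decarboxylase that makes dopamine and serotonin, at -1.11 (SE 0.195, adjusted p 0.00259), whose imprinted transcript is known from the paternal allele although the list holds it here, and of Osbpl5, an oxysterol-binding protein, at -0.53 (SE 0.149, adjusted p 0.0277). In low glucose without both doubted libraries these 4 were at 0.44, 0.58, -1.04 and -0.69, all past the threshold. With glucose, H13, a signal peptide peptidase, rose by 0.81 in B6 and 0.90 in BLKS, and Pon3, a paraoxonase, by 0.42 and 0.30. Genes in these lists can be imprinted only in some tissues, and the transcribed allele was not measured here.

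Cdkn1c, Cd81, Tssc4, Slc22a18 and Osbpl5 lie close together. The lists hold 13 imprinted genes within 1 Mb of Cdkn1c on chromosome 7, Cdkn1c included. Of these, 3 were higher (Cd81, Tssc4, Slc22a18) and 2 lower (Cdkn1c, Osbpl5) in BLKS in high glucose. Of all tested genes, 6.18% were higher and 7.56% lower there. Neighbours in this imprinted domain therefore moved in both directions.

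Of 11 genes reported as targets of the Plagl1 protein, which include Rasgrf1, Cdkn1c and Dlk1, 2 were higher and 2 lower in BLKS than in B6 in high glucose, or 4 and 3 with a random block for array pairs. Of all genes, 6.18% were higher and 7.56% lower with no block, and 30.6% passed with the random block. The target that passed with no block and is not yet described was Cdkn1a, an inhibitor of cyclin-dependent kinases. It was higher by 0.36 (SE 0.107, adjusted p 0.0344) and by 0.51 in low glucose without both doubted libraries. Slc2a4, an insulin-regulated glucose transporter, rose with glucose by 0.43 in B6 and 0.27 in BLKS and was at -0.17 between strains (adjusted p 0.161). In a list of 7 genes of the imprinted network around Plagl1 (Igf2, H19, Igf2r, Meg3, Gatm, Dcn and Sgce), none passed between strains in high glucose with all mice. At an unadjusted p under 0.05 in limma there were 3 of the 7, against 28.1% of all genes. With a random block for array pairs 2 were higher and 2 lower in high glucose. Without both doubted libraries 1 was higher (Igf2) and 1 lower (Gatm) in high glucose, against 18.8% of all genes past the threshold, and likewise in low glucose, against 18.9%. Igf2r rose with glucose by 0.25 in B6 and 0.34 in BLKS.

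The pathways of Grb10 and Gnas were also followed. Of 14 tested genes of insulin and IGF receptor signalling, at high glucose none was higher in BLKS and 3 were lower, namely the adaptor Shc1 (-0.29, adjusted p 0.0147) and the kinases Pdpk1 (-0.23, adjusted p 0.0328) and Pik3ca (-0.20, adjusted p 0.0128). Of 18 tested genes of stimulatory G protein-coupled receptors and cAMP signalling, none was higher and 2 lower, the glucagon receptor Gcgr (-0.59, adjusted p 0.00689) and the phosphodiesterase Pde4b (-0.38, adjusted p 0.0133). The counts with a random block for array pairs were 1 higher and 6 lower for the former list and 3 higher and 2 lower for the latter. Of all genes, 30.6% passed with that block. With no block 13.7% of all genes passed, 6.18% higher and 7.56% lower. The median differences of the lists with no block were -0.14 and 0.013, against 0.0064 for all probes. Gipr, the receptor of the incretin GIP, fell with glucose by 0.54 in B6 and 0.81 in BLKS on the log2 scale.

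Genes near Plagl1 were examined next. RefSeq lists 25 other genes within 1 Mb of its start, of which 11 were tested. In high glucose 3 were higher in BLKS: Sf3b5, a splicing factor subunit 82.4 kb before the Plagl1 start (0.44, adjusted p 0.00446), Ltv1, a ribosome assembly factor 102 kb after it (0.54, adjusted p 0.0203), and Adat2, a tRNA deaminase 462 kb after it (0.32, adjusted p 0.0155). None was lower, and the median was 0.017, where 6.18% of all genes were higher. In low glucose without both doubted libraries 5 passed, against 18.9% of all genes, these 3 being joined by Utrn (-0.38) and Fuca2 (-0.25), which were lower in BLKS. The brighter Plagl1 probe differed by 2.78. The dimmer one differed by 0.78, nearer to the 0.54 of Ltv1, whose probe averaged 6.42 in B6 and lay close to background, where differences are understated.

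**Figure D5:**
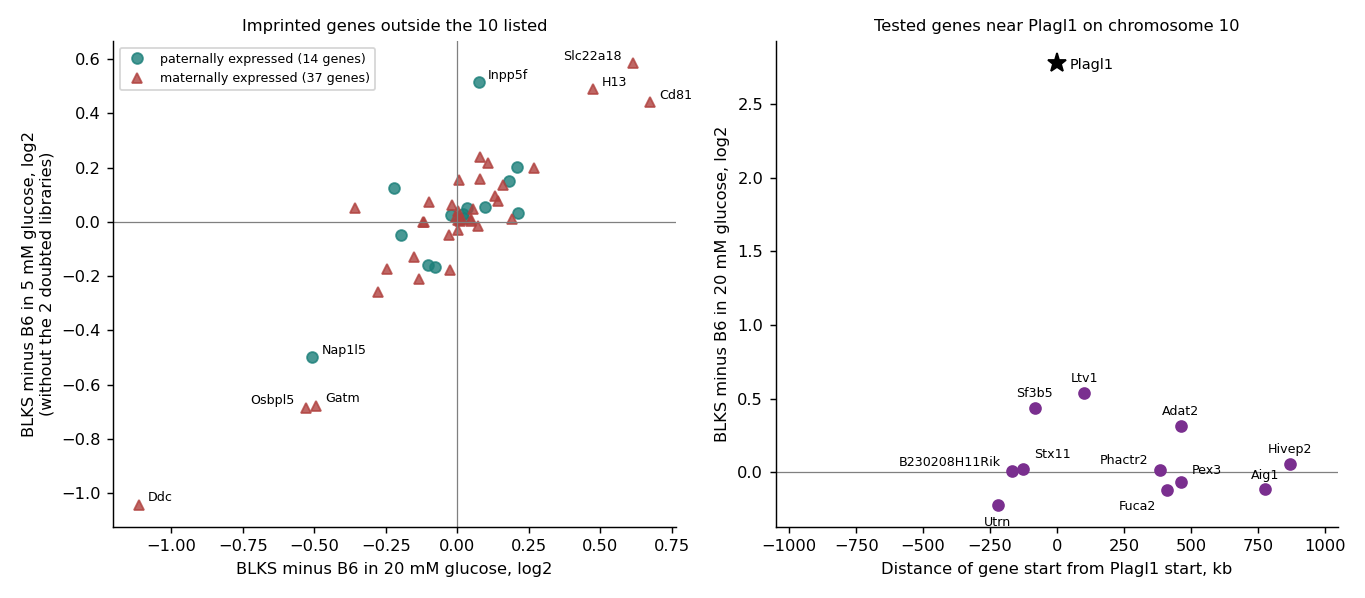
Left, strain difference (BLKS minus B6, log2) of other imprinted genes in high glucose with all mice against that in low glucose without the 2 libraries that go against their labels; right, strain difference in high glucose of tested genes near Plagl1 by distance from its start (kb). Imprinted genes, coloured by the allele their list gives, spread around 0 from Ddc at -1.11 to Cd81 at 0.67, and the neighbours of Plagl1 lie between -0.22 and 0.54.

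The probes most like the brighter Plagl1 probe over the 19 mice were those of Btbd9, Gnptg and Glo1 (chromosome 17), Nefh (chromosome 11) and Cap1 (chromosome 4), with Pearson r of 0.991 to 0.994. Among 29273 ranked probes, Rasgrf1 had r of 0.83 (rank 557), Mest 0.82 (rank 621) and Ndn 0.61 (rank 2086), while Cdkn1c was at -0.89 and Peg3 at -0.67. These correlations describe the split between strains, including the 2 libraries that go against their labels, and no p is given for them.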

How the data were processed

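RNA of islets from 19 mice was hybridized by the authors to Agilent mouse arrays of 2 colours, the 2 dyes carrying different mice; mice sharing arrays form a pair, and B6 low glucose 1 lies on 4 arrays. The deposited scanner files (Agilent Feature Extraction 9.5.3.1 in their headers, 8.1 in the labels) hold processed intensity per spot, dye-normalized by the authors without background subtraction. The deposited table of log2 values holds the log2 mean spot signal averaged over dyes (r at least 0.99994 with the scanner values, column medians 6.23 to 6.52); it served as an alternative.

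Control spots and outlier flags were left out of 41534 spots per array. Channels were scaled between arrays (Aquantile), and spots of a probe and dyes of a mouse were averaged (R 4.3.3, limma 3.58.1). Probes well above background in all channels of at least 4 mice were tested (29326), with means of 4 groups in 1 fit, eBayes and Benjamini-Hochberg adjustment. In lists, the tested probe of highest mean signal stood for a gene. Depth has no meaning for arrays; the number of mice limits the precision. In simulated data for the strain difference in high glucose (29274 probes), 54% of probes changed by 0.25 on the log2 scale were recovered, 92% at 0.5 and 100% at 1 and 2. The simulated spread was that of the mice without both doubted libraries, and mice were drawn independently of array pairs. For probes that separate the strains, the fit with all mice has a wider spread, so these shares can be too high for it.

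The array sharing given in the labels pairs the samples. Mice sharing arrays deviated together (median correlation 0.43 over 10 pairs, lowest 0.02, against -0.016 over 125 others), so the pair as a fixed or random block is printed beside a member or list where it changes a call or a count (by over 1.5 times), except for the Plagl1 strain difference, which has no test. The members and lists were chosen with earlier results of these data known. Named genes were all member probes; of each other list, up to 4 with the largest passing strain difference in high glucose and up to 2 with the largest passing glucose response, and others by count; genes within 1 Mb of Plagl1; and the 5 probes most like its brighter probe. Igf2, Gatm, Tssc4 and the members of short lists were named in addition, after their values were seen. Promoters and positions come from RefSeq (GRCm38.p6); 9 of 10 members had a promoter there. Alternatives covered background correction, scaling, filters, dyes, pairing, the methods' linear model and leaving out mice.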

Additional observations from a re-analysis of the deposited data

Results flagged for a closer look

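Of 84 groups (21 probes in 4 groups), 9 held a mouse standing apart from the others by Dixon's test, where chance alone flags about 1 in 20 groups. Of these, 5 were the 2 libraries that go against their labels. The library labelled B6 low glucose 4 stood apart at 12.23 and 7.67 on the 2 Plagl1 probes. Opposite to it, the library labelled BLKS low glucose 5 stood apart at 8.90 and 6.86 on them and at 6.37 on Cdkn1c.

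The other 4 were single mice on single probes. B6 low glucose 1 stood apart on a dim Gnas probe (A_51_P326769) at 6.01. B6 low glucose 3 stood apart on a dim Grb10 probe (A_51_P187151) at 6.05, and B6 high glucose 5 on another (A_52_P40363) at 6.39. B6 low glucose 5 stood apart on Ndn (A_52_P451644) at 7.61.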

How the results depend on the processing

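The Plagl1 strain difference in high glucose stayed between 2.74 and 2.84 over all alternatives, and the number of member probes past the threshold there between 4 and 9. These counts include both Plagl1 probes. In low glucose that number was 0, and rose to 1 with Cy3 alone, 2 with a fixed block for array pairs, 7 with a random block, 5 under the methods' linear model and 7 without both libraries that go against their labels; leaving out 1 mouse gave 0 to 5, the count being 5 when B6 low glucose 4, by its label, was left out, and 4 when BLKS low glucose 5 was. In B6 the 2 probes responding to glucose became 1 without scaling, 0 without a filter, 1 in the authors' table, 1 with Cy5 alone, 1 without later-scanned arrays, 5 under the methods' linear model, 0 without both libraries and 0 to 3 without 1 mouse. In BLKS the 2 became 0 without scaling, 0 in the authors' table, 1 with Cy5 alone, 5 under the methods' linear model and 1 to 2 without 1 mouse. For the difference between responses, 0 became 1 under the methods' linear model. That model counts the 2 dyes of a mouse as separate values. The Peg3 strain difference in low glucose turned to 0.047 with Cy5 alone. The other causes were not tested. Among single member values, 482 kept their direction and side of the threshold under an alternative, 61 lost the call and 43 gained it. Negative controls (log2 5.67 to 5.93) lay close to 9 of the 21 member probes (under 2-fold), which limits what these can show.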
